A study of Mus musculus with 6 samples.

Results

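The genes described here encode the nuclear subunits of the 5 complexes of the mitochondrial respiratory chain, measured in Ter119-positive bone marrow cells of mice with and without mDia2. Members were chosen by gene symbol: names that begin with Nduf stood for complex I, Sdha to Sdhd for complex II, Uqcr for complex III, Cox4 to Cox8 for complex IV and Atp5 for complex V. These names matched 119 probes of 81 symbols, and a symbol was kept where a probe had a detection p-value under 0.05 on at least 3 of the 6 arrays. The brightest such probe stood for its symbol. In all, 72 of the 11562 genes tested were members, with 36 in complex I, 3 in complex II, 5 in complex III, 12 in complex IV and 16 in complex V. The names also took in 6 genes whose products are not subunits of the complex that the symbol gives. Ndufaf1, Ndufa12l (now Ndufaf2) and Atp5sl (now Dmac2) are assembly factors of complex I, Cox4nb (now Emc8) is a neighbour of Cox4i1, Atp5s is now Dmac2l, and Ndufa4 is now placed in complex IV. The other 66 members are called subunits.

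Cells carrying Ter119, a surface antigen of erythroid cells from the erythroblast stage onward, had been purified from whole bone marrow, and each mouse gave 1 Illumina bead array. The 3 wild type mice and the 3 mice with a conditional knockout of mDia2 were all C57BL/6 and 4 months old. The formin mDia2 is the product of Diaph3 and builds unbranched actin filaments. The driver of the conditional deletion, the sex of the mice and whether the wild type mice carried the floxed allele or the driver were not stated in the labels. The 3 mice of each group were described as a biological triplicate.

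The respiratory chain passes electrons from NADH through complex I, or from succinate through complex II, to coenzyme Q, and onward through complex III, cytochrome c and complex IV to oxygen. Complexes I, III and IV pump protons across the inner mitochondrial membrane, and complex V, the ATP synthase, uses the return of the protons to make ATP. Erythroid precursors depend on mitochondria for the first and the last steps of heme synthesis and clear these organelles as they mature into red cells.

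The target gene was measured first, as a check of the labels. Diap3, the array's older symbol for Diaph3, had wild type signals of 1045, 965 and 969, against 574, 341 and 486 in mice lacking mDia2. On average, 47.0% of the wild type signal remained (log2 difference -1.12 ± 0.18 SE, limma adjusted p = 0.0917), and the groups did not overlap, although the gene missed the threshold over all probes. It passed in limma with an intensity trend (adjusted p = 0.0164), with array weights (adjusted p = 0.0236), without knockout replicate 2 (-0.91, adjusted p = 0.0139) and without both that mouse and wild type replicate 3 (-0.93, adjusted p = 0.00274). With the mean of its probes the difference was -0.66. The position of the probe in Diaph3 was not given, so it is unknown whether the deletion covers it. A second, dim probe of the gene (mean signal 105) had a difference of -0.20 ± 0.08 SE. Detected probes numbered 14815 to 16951 per array, the highest number being that of wild type replicate 3. Erythroid genes were bright on every array, and 14 of 18 tested erythroid markers lay above 0 (median log2 difference 0.11), with summed signals of 216757 to 233411 in wild type and 236855 to 251063 in knockout mice. All 17 neutrophil markers detected, of 19 listed on the array, lay below 0 (median -1.33), and their summed signal was 38223 to 55236 in wild type and 15410.1 to 27014 in knockout mice. The monocyte and macrophage (12 of 14 detected, median -0.59), B lineage (10 of 13, median -0.52), megakaryocyte (6 of 8, median -0.50) and T and NK lists (3 of 9, median -0.04) lay below 0 in every detected gene on the deposited scale, where 81.2% of all genes did. After quantile normalization only the T and NK list changed, with 1 of its 3 genes below 0. With each array centred on its tested probes, 12 of 12 monocyte and macrophage, 8 of 10 B lineage, 5 of 6 megakaryocyte and 1 of 3 T and NK genes lay below 0. The summed monocyte and macrophage signal was 6432 to 14184 in wild type and 2789 to 6241 in knockout mice. The summed B lineage signal was 1823 to 2041 in wild type and 1242 to 1297 in knockout mice, that of megakaryocytes 1473 to 2086 and 1212 to 1262, and that of T and NK cells 384 to 504 and 359 to 386. Their part in the values of the respiratory chain was not tested. In such bulk samples, fewer cells of a type and less RNA per cell cannot be told apart.

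Promoter sequences introduce the genes because nuclear respiratory genes are classic targets of NRF1 and of the ETS-family factor GABP, and because a shared regulator list is described further on. A window of 300 bases, 250 before and 50 after the annotated start, was available from RefSeq (GRCm38.p6) for 61 of the 72 members. Of the windows with the NRF1 letters (GCGCA followed directly by its reverse complement, hence the same on both strands), the ETS letters (CCGGAAG, either strand) or the YY1 letters (AAGATGGCG, either strand), 1 is shown per complex. It belongs to the subunit of smallest p whose window holds the NRF1 letters, or the ETS letters where no window of the complex holds the first. Capitals mark the letters found, which read CTTCCGG where ETS lies on the opposite strand.
Ndufa11, complex I, chr17:56717512-56717811, plus strand: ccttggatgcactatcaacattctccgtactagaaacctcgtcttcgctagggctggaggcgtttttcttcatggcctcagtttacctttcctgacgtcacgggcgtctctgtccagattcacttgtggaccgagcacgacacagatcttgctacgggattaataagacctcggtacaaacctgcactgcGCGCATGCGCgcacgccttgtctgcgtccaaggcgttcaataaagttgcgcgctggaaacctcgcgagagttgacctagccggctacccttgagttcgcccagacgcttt
Sdhb, complex II, chr4:140961021-140961320, plus strand: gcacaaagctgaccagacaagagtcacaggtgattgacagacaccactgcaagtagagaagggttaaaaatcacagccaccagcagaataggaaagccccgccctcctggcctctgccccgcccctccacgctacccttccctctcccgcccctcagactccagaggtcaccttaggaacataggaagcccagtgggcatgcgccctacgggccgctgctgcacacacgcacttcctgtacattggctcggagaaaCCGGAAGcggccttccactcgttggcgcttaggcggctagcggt
Uqcrc1, complex III, chr9:108936398-108936697, plus strand: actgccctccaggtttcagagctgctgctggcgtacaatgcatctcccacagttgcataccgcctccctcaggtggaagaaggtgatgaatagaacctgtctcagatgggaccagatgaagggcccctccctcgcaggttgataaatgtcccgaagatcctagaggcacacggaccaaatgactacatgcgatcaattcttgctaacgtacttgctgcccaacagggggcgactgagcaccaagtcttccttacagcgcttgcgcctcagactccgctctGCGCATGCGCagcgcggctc
Cox6a1, complex IV, chr5:115348909-115349208, minus strand: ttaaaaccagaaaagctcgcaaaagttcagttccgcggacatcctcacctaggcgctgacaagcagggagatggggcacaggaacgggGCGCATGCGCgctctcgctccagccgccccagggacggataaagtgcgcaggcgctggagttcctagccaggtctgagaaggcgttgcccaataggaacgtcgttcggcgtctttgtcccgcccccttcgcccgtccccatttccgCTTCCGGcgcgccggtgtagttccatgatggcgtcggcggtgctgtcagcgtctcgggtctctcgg
Atp5g2, complex V, chr15:102670998-102671297, minus strand: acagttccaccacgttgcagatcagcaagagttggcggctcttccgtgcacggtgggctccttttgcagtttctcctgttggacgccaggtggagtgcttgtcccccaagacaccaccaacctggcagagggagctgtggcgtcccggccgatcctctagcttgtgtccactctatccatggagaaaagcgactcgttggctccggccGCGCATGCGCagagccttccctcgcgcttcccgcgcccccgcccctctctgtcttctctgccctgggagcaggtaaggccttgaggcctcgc

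Counted from the annotated start, the first of the NRF1 letters stood at -60 in Ndufa11, -162 in Cox6a1, -42 in Atp5g2 and 31 in Uqcrc1. The letters stood in the windows of 5 of 61 members (8.2%), against 2.38% of the 7107 tested genes with a window and 1.07% of all 27025 genes with a window. The ETS letters stood in 16 members (26.2%), against 21.9% of tested genes and 9.93% of all genes with a window, and the YY1 letters in 8 members (13.1%), against 4.08% and 1.64%. A TATAAA run, searched on the same windows, stood in 5 members (8.2%), against 8.68% of tested genes and 15.7% of all genes with a window. The NRF1, ETS or YY1 letters were held by 26 members, whose median log2 difference was -0.09, and the 35 members with a window and none of them had a median of -0.05. A match is a description of the letters and not a binding site.

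No respiratory chain gene passed the test between knockout and wild type mice. None of the 72 members reached an adjusted p under 0.05 (limma, Benjamini-Hochberg over all tested probes), against 0.104% of all genes. At an unadjusted p under 0.05 there were 2 members (2.78%), both lower in the knockout, against 19.9% of all genes, of which 18.6% were lower and 1.3% higher. Both were genes that only share the name, Cox4nb and Atp5sl, and none of the 66 subunits reached an unadjusted p under 0.05. The log2 difference lay below 0 for 47 members (65.3%) and for 81.2% of all genes, and the median was -0.05 for the members and -0.11 for all genes. The groups did not overlap for 7 members (9.72%), against 25.2% of all genes. In 6 of them the knockout mice lay below, which held for 23.2% of all genes, and in 1 the knockout mice lay above, which held for 2.02%.

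On the deposited scale, the 95% interval of the log2 difference lay within 0.5 of 0 for 66 of the 72 members (91.7%) and for 76.7% of all genes. The lowest bound was -0.68, of Ndufs4, and the highest was 0.38, of Cox6c. The bounds moved with the scaling, to -0.48 (Ndufs4) and 0.57 (Uqcrb) after quantile normalization and to -0.42 (Ndufs4) and 0.56 (Cox6a1) after centring. A p-value that misses the threshold does not show that levels were equal, and with 3 mice against 3 an exact permutation test of a single gene cannot go below a two-sided p of 0.1.

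**Figure D1:**
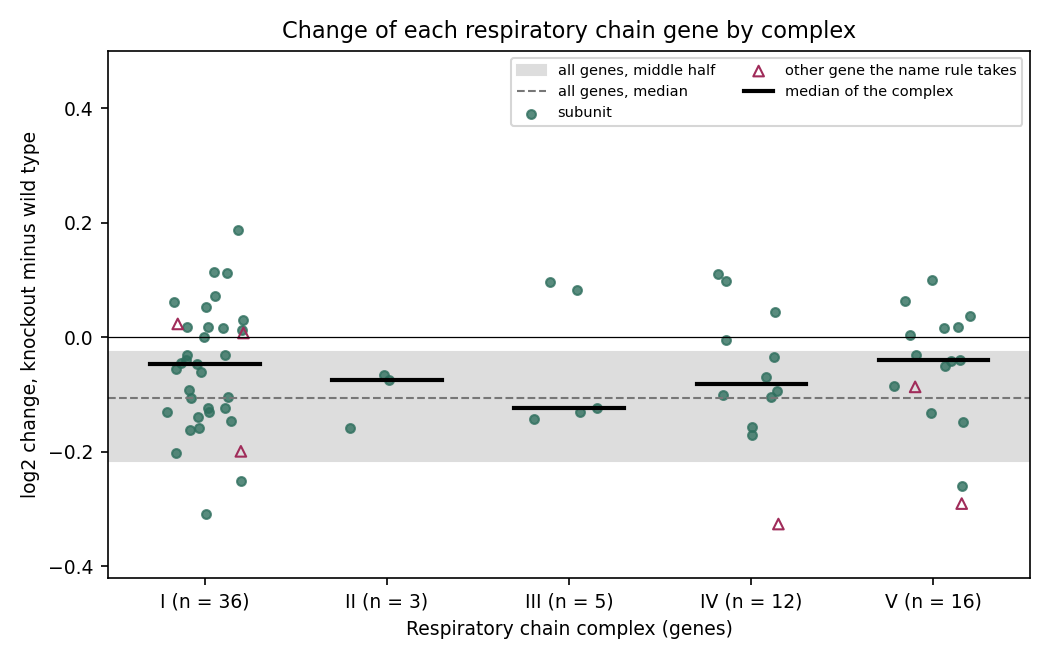
Log2 difference (knockout minus wild type, vertical axis) of each respiratory chain gene, grouped by complex (horizontal axis, with the number of genes), where circles are subunits, triangles are other genes the names take in, bars are complex medians, and the grey band and dashed line are the quartile range and the median of all tested genes. The complex medians lie between -0.12 and -0.04, and the lowest points of complexes IV and V are the triangles Cox4nb and Atp5sl.

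The side of 0 on which the genes lay changed with the scaling of the arrays. Under quantile normalization the median of all genes moved to 0.01 and that of the members to 0.04, with 26 members (36.1%) below 0, and 7 members (9.72%) at an unadjusted p under 0.05, all higher in the knockout, against 15.2% of all genes, of which 905 were lower and 851 higher. With each array centred on its tested probes, the median of all genes was 0.07 and that of the members 0.12. There, 7 members (9.72%) lay below 0 and 20 (27.8%) were higher at an unadjusted p under 0.05, against 17.5% of all genes, of which 668 were lower and 1360 higher. The members' median lay above that of all genes by 0.05 as deposited, a gap that centring keeps by construction, and by 0.03 after quantile normalization; with no filter on dim probes the gap was -0.012, the members lying below all genes. No member passed the adjusted test under these settings. Over all genes, the calls were 12 lower and 0 higher as deposited, 7 lower and 4 higher after quantile normalization, and 23 lower and 11 higher after centring.

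Of 8 members followed across the scalings, Ndufa7 lay furthest from 0 after quantile normalization and after centring. Its log2 difference was 0.28 ± 0.06 SE after quantile normalization (limma adjusted p = 0.135) and 0.36 ± 0.07 SE after centring (limma adjusted p = 0.0892). Cox4nb kept its sign with -0.14 and -0.15, and so did Atp5sl with -0.14 and -0.12, neither with an unadjusted p under 0.05 in limma. Sdhb, at -0.16 as deposited, had 0.0038 and 0.02, so its direction was not kept. Ndufa11 turned to 0.0009 and 0.04, and Ndufab1 and Atp5c1 had -0.08 and -0.10 after quantile normalization but 0.04 and 0.03 after centring.

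Respiratory chain genes were bright, and on the deposited scale bright genes as a whole lay closer to 0. The median of the members' mean signals was 1444, against 175.5 over all genes. Among the 1389 genes with a mean signal over 1000, the median log2 difference was -0.06 and 14.3% had an unadjusted p under 0.05. The 44 members in that range had a median of -0.04, and none had an unadjusted p under 0.05. In the dimmer range, the 28 members had a median of -0.10 and all 10173 genes a median of -0.11. After centring, the bright genes lay further from 0 than the dimmer ones, with medians of 0.11 and 0.06 over all genes, and after quantile normalization the medians were -0.0056 and 0.01.

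In complex I, which oxidises NADH, 22 of 36 members lay below 0 and the median log2 difference was -0.05. Its 6 measured core subunits, which carry the flavin and the iron-sulfur clusters, all lay below 0, between -0.25 and -0.09, with a median of -0.14, none with an unadjusted p under 0.05; all 6 lay below 0 after quantile normalization too (median -0.06), but 2 of 6 after centring (median 0.04). The 27 supernumerary subunits, which surround the core, had a median of -0.03, with 15 below 0 as deposited, 5 after quantile normalization and 1 after centring. Ndufs8, a core subunit that holds a pair of iron-sulfur clusters, had signals of 1192, 1262 and 1417 in wild type and 1228, 1003 and 1139 in knockout mice (log2 difference -0.20 ± 0.10 SE, limma adjusted p = 0.33). The groups overlapped, and wild type replicate 3 was the highest mouse.

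Ndufs4, a supernumerary subunit whose loss in mice gives a Leigh-like encephalopathy, had the lowest value of the complex. Its signals were 842, 839 and 1265 in wild type and 742, 752 and 844 in knockout mice, with means of 982 ± 245 (SD, n = 3) and 779 ± 56.4 (SD, n = 3). The log2 difference was -0.31 ± 0.16 SE (limma adjusted p = 0.337), and the highest knockout mouse lay above 2 of the 3 wild type mice. Ndufa7 had the highest value of the complex, with signals of 1298, 1281 and 1455 in wild type and 1592, 1510.1 and 1486 in knockout mice. All knockout mice lay above all wild type mice, with means of 1345 ± 96.0 and 1529 ± 55.6 (SD, n = 3 each). The log2 difference was 0.19 ± 0.08 SE, and limma gave an unadjusted p of 0.0501 and an adjusted p of 0.265.

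A further pair of supernumerary subunits had groups that did not overlap, both with the knockout mice below. Ndufab1, the mitochondrial acyl carrier protein, had dim signals of 104, 113 and 108 in wild type and 101, 97.0 and 97.8 in knockout mice (-0.14 ± 0.07 SE, limma adjusted p = 0.329), and was detected in 2 of the 3 knockout mice. Ndufa11, a membrane subunit named here after its values were seen, had signals of 826, 849 and 866 in wild type and 791, 723 and 808 in knockout mice (-0.13 ± 0.08 SE, limma adjusted p = 0.375). Ndufb7 (-0.16 ± 0.13 SE) and the assembly factor Ndufaf1 (-0.20 ± 0.14 SE) had overlapping groups.

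In complex II, which links the citrate cycle to the chain, all 3 measured members lay below 0 as deposited, with a median of -0.07, and above 0 after quantile normalization or centring. Sdhb, the iron-sulfur subunit, had signals of 627, 646 and 676 in wild type and 567, 576 and 604 in knockout mice, and the groups did not overlap. The means were 649.7 ± 24.9 and 582 ± 19.3 (SD, n = 3 each), and the log2 difference was -0.16 ± 0.07 SE (limma unadjusted p = 0.0607, adjusted p = 0.282). The membrane anchors were closer to 0 and their groups overlapped. Sdhd had signals of 188, 201 and 203 in wild type and 182, 191 and 189 in knockout mice (-0.07 ± 0.07 SE), and Sdhc had 1006, 1104 and 1243 against 966, 1199 and 1038 (-0.07 ± 0.11 SE).

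In complex III, which passes electrons from coenzyme Q to cytochrome c, 3 of 5 members lay below 0 and no member had groups apart. The core proteins were below 0, with a median of -0.14 as deposited, -0.09 after quantile normalization and 0.04 after centring. Uqcrc2 had signals of 3291, 2886 and 3757 in wild type and 2993, 3263 and 2719 in knockout mice (-0.14 ± 0.12 SE, limma adjusted p = 0.519), and Uqcrc1 had 2143, 2398 and 2756 against 2408, 2090.2 and 2147 (-0.13 ± 0.11 SE, limma adjusted p = 0.531). Of the small subunits, Uqcr, now Uqcr11, had a difference of -0.12 ± 0.08 SE. Uqcrb, which lies beside a coenzyme Q site, had 315, 268 and 257 in wild type and 296, 287 and 303 in knockout mice (0.08 ± 0.09 SE), and Uqcrh, the hinge protein, had a difference of 0.10 ± 0.10 SE. The knockout mice lay inside the wild type range for Uqcrb, so its sign rests on differences smaller than the spread between mice.

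In complex IV, cytochrome c oxidase, 9 of 12 members lay below 0, and the median was -0.08. Cox4nb had the smallest p of all members, with signals of 337, 362 and 364 in wild type and 265, 305 and 279 in knockout mice. The knockout mean reached 79.8% of that in wild type (355 ± 15.3 and 283 ± 19.9, SD, n = 3 each), the groups did not overlap, and the log2 difference was -0.33 ± 0.08 SE (limma unadjusted p = 0.00443, adjusted p = 0.18). Its product belongs to the membrane protein complex of the endoplasmic reticulum and not to the oxidase. Cox5a, a subunit on the matrix side of the enzyme, was the subunit of smallest p, with 2323, 2243 and 2538 in wild type and 2246, 1995 and 2072 in knockout mice (-0.17 ± 0.08 SE, limma adjusted p = 0.314). Its partner Cox5b, which binds zinc, had a difference of -0.10 ± 0.09 SE.

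The oxidase has subunit forms that differ between tissues, and the array carried probes for both forms of several. Only for subunits 6a and 6b were both forms detected on 3 or more arrays. Cox4i1, the widely expressed form of subunit 4, had signals of 5878, 6114 and 6454 in wild type and 5672, 6037 and 5854 in knockout mice (-0.07 ± 0.07 SE), while Cox4i2, the lung form, was not detected. Cox6a1, the liver form, had 4973, 5559 and 5612 against 6248, 5024 and 6223 (0.11 ± 0.11 SE), and Cox6a2, the heart and muscle form, was near the background with a difference of -0.09 ± 0.08 SE, detected in 2 wild type mice and 1 knockout mouse. Cox6b1 (-0.03 ± 0.07 SE) and its testis form Cox6b2 (-0.10 ± 0.16 SE) had overlapping groups. The tested probe of Cox6b2 had mean signals of 603 in wild type and 560 in knockout mice. Its other probe, with signals down to 87.9, was detected on too few arrays to be tested, so the probes of this gene disagreed. Cox7a2, the liver form of subunit 7a, had a difference of 0.04 ± 0.12 SE, and Cox7a2l, which takes part in joining complexes III and IV, had one of -0.16 ± 0.11 SE.

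In complex V, the ATP synthase, 10 of 16 members lay below 0 and the median was -0.04. Atp5sl, which despite its symbol takes part in building complex I, had signals of 155, 161 and 160 in wild type and 117, 148 and 126 in knockout mice. The means were 159 ± 3.07 and 130 ± 15.7 (SD, n = 3 each), the groups did not overlap, and the log2 difference was -0.29 ± 0.10 SE (limma unadjusted p = 0.0183, adjusted p = 0.2). Of the genes for the ring subunit c, which turns as protons pass, Atp5g2 had 961, 829 and 1070.5 in wild type and 778, 880.4 and 726 in knockout mice (-0.26 ± 0.12 SE, limma unadjusted p = 0.0585, adjusted p = 0.278). Atp5g3, another gene for the same protein, had 7375, 8294 and 8240.0 against 7905, 8113 and 7081 (-0.05 ± 0.09 SE), and in both genes the groups overlapped.

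The catalytic F1 head had a median of -0.04 over its 5 measured genes. Atp5c1, its central shaft, had signals of 2464, 2455 and 2917 in wild type and 2281, 2371 and 2394 in knockout mice, and the groups did not overlap (2612 ± 264 and 2349 ± 59.5, SD, n = 3 each). The log2 difference was -0.15 ± 0.09 SE (limma adjusted p = 0.392). Atp5e, the epsilon subunit, had a difference of -0.13 ± 0.09 SE with overlapping groups. Atp5b, the catalytic beta subunit and named after its values were seen, had 11123, 10779.5 and 13231 against 11809, 12518 and 11137 (0.02 ± 0.10 SE). The stalk and membrane subunits had a median of 0.0038 over 7 genes, the lowest being Atp5f1, subunit b of the outer stalk, with -0.09 ± 0.13 SE, and the highest being Atp5l with 0.10 ± 0.08 SE.

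**Figure D2:**
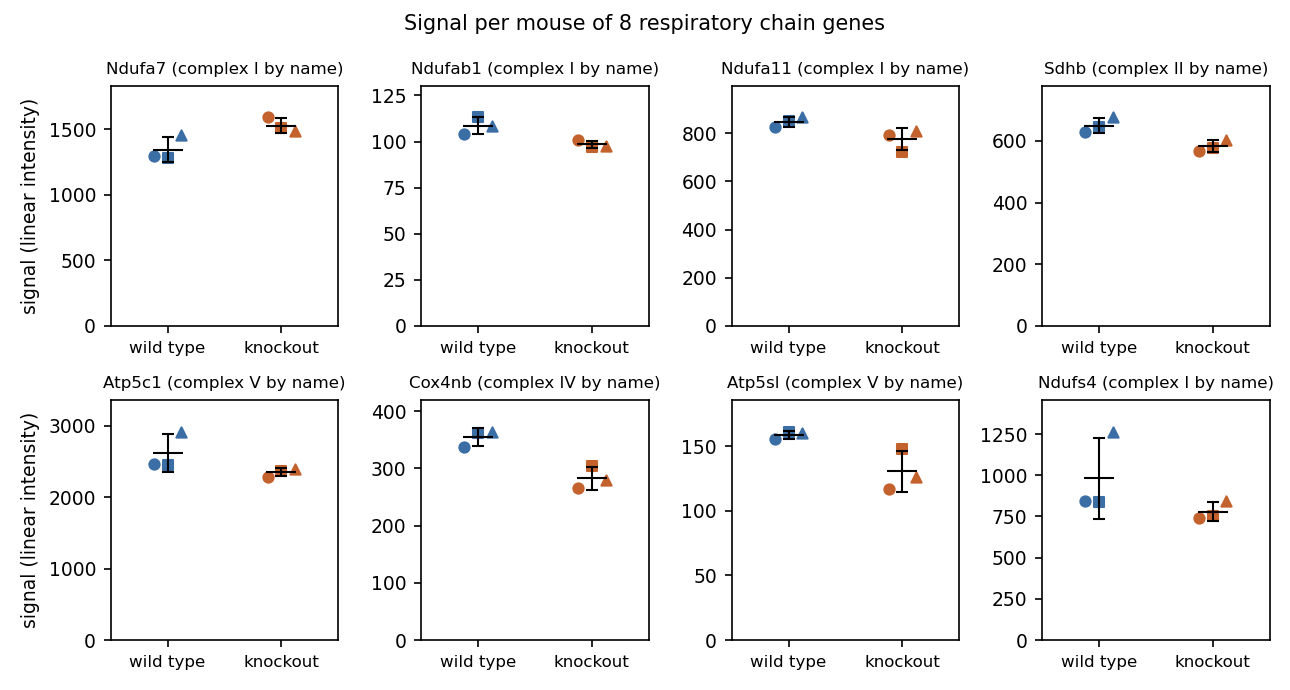
Signal (linear intensity, vertical axes from 0) of 8 respiratory chain genes in each wild type (blue) and knockout (orange) mouse, with circles, squares and triangles for replicates 1, 2 and 3 and bars for the mean ± SD of 3 mice; the complex in each title is that given by the symbol. The 7 panels with no overlap between knockout and wild type mice show every member without overlap, 9.72% of the members against 25.2% of all genes. For Ndufs4 the wild type spread comes from replicate 3 at 1265.

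The order of the 5 complexes depended on the summary used. Their median log2 differences ranged from -0.12 in complex III to -0.04 in complex V, but by the mean over genes complex III was the highest at -0.04 and complex II the lowest at -0.10. Differences between complexes were not tested. Averaged over all 72 members, the log2 level relative to the wild type mean was -0.07, -0.06 and 0.13 for the wild type group and -0.07, -0.01 and -0.10 for the knockout group. The knockout mice lay within the range of the wild type mice but for replicate 3, the lowest mouse of all. Over all genes the same measure was -0.05, -0.06 and 0.11 in wild type and -0.13, -0.09 and -0.20 in knockout mice, where the groups did not overlap.

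Wild type replicate 3 was the highest mouse in each of the 5 complexes, from 0.08 in complex III to 0.15 in complex I. Without it, the median of the members was 0.02, with 33 of 72 (45.8%) below 0, and the medians of complexes I, III and V were 0.04, -0.04 and 0.06, while that of all genes was -0.06. This mouse also had the most detected probes and the highest summed neutrophil and monocyte signals, and their part in these values was not tested. Without wild type replicate 3 and knockout replicate 2, an alternative added after seeing the data and chosen for their low array weights, 2 members passed the adjusted test, Cox4nb (log2 difference -0.36, limma adjusted p = 0.0488) and Atp5sl (-0.38, limma adjusted p = 0.0405), while 41 of 72 members lay below 0. These were 2.78% of the members, and 7.15% of all genes were called under the same setting.

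**Figure D3:**
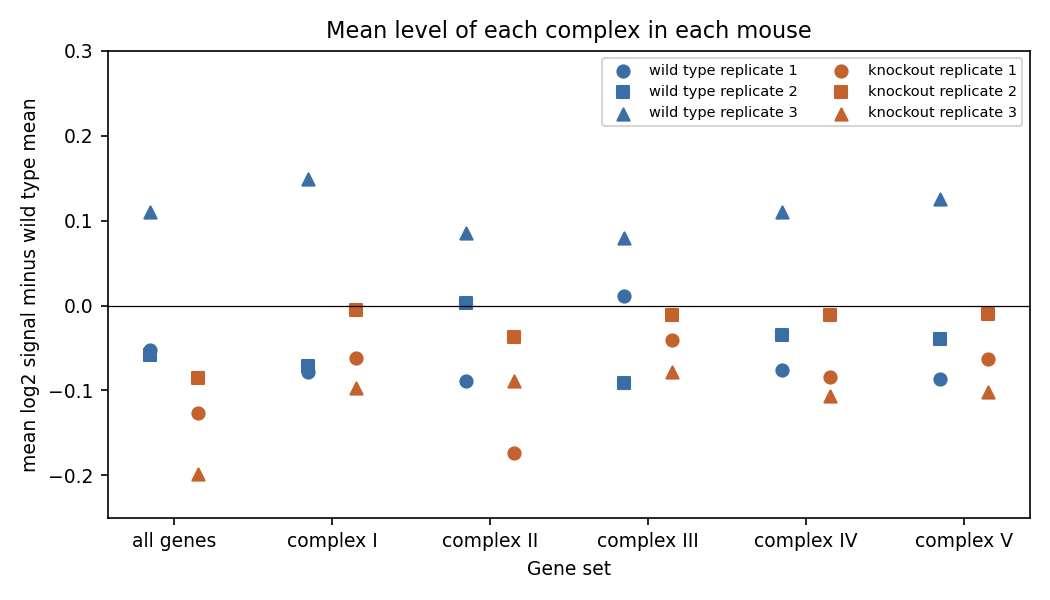
Mean log2 signal relative to the wild type mean (vertical axis) over all genes and over the genes of each complex (horizontal axis), with 1 point per mouse, blue for wild type and orange for knockout, and circles, squares and triangles for replicates 1, 2 and 3. Wild type replicate 3 is the highest point in every set, at 0.11 over all genes and 0.15 in complex I, and within each complex the knockout points overlap the other wild type points.

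Other probes of the same genes gave a further reading of the differences. For 24 members the array held at least a second tested probe, 30 in all, of which 19 had a difference of the same sign as the brightest probe of the gene, and the median absolute gap between them was 0.088. The second probe of Cox4nb, nearly as bright as the first (mean signal 315 against 319), had a difference of -0.03 ± 0.12 SE against -0.33. The other probes of Ndufs4 had -0.16, -0.02 and 0.01 against -0.31, and those of Sdhb had -0.02 and -0.05 against -0.16. A dimmer probe of Atp5j, a stalk subunit, had -0.25 ± 0.07 SE (limma unadjusted p = 0.00919, adjusted p = 0.185) where the brightest probe had -0.04. None of the 30 other probes passed the adjusted test.

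**Figure D4:**
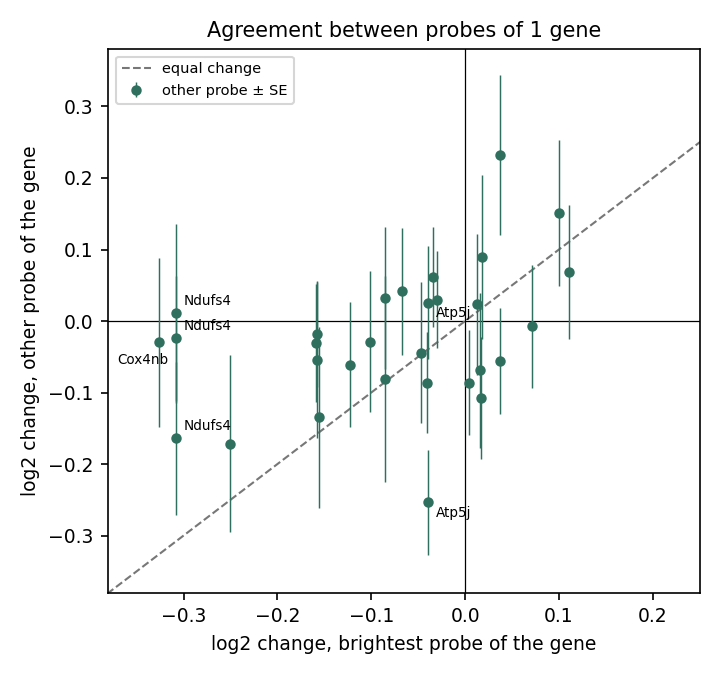
Log2 difference (knockout minus wild type) of each other tested probe (vertical axis, ± SE) against that of the brightest probe of the same gene (horizontal axis), for 30 probes of 24 respiratory chain genes. The dashed line marks equal differences, and the points of Cox4nb and Ndufs4 at the left lie above it, at -0.03 and at -0.16 to 0.01.

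The remaining 9 symbols of the name rule were not detected on enough arrays. Among them were catalytic or iron-sulfur subunits, namely Ndufs1 of complex I, Sdha of complex II and Uqcrfs1 of complex III, as well as Uqcrq. Ndufs1 had signals of 88.2 to 99.0, and the Sdha and Uqcrfs1 probes had 81.7 to 101 over all mice, where the median signal of undetected probes was 86.7 to 89.5. Sdha was detected on 1 array and Uqcrfs1 on 2 arrays, and Ndufs1 and Uqcrq on none. The other 5 were the tissue forms Cox4i2, Cox7a1, Cox7b2, Cox8b and Cox8c. A further 9 genes, for subunits or assembly factors of the chain, carried an older name on the array and were outside the rule. Of these, 5 lay below 0 and 2 had an unadjusted p under 0.05 in limma, where 19.9% of all genes did, the assembly factors Ndufaf4 (1110007M04Rik, -0.32) and Ndufaf8 (1810043H04Rik, -0.19).

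The mitochondrial genome encodes further subunits. The 8 on the list that the array carried were all measured, and they are not the full set that this genome encodes. Of these, 6 lay below 0 and none had an unadjusted p under 0.05, with a median of -0.12. The genes of smallest p were mt-Nd4l (-0.19 ± 0.12 SE), mt-Nd5 (-0.20 ± 0.13 SE) and mt-Nd6 (-0.23 ± 0.19 SE), subunits of complex I. mt-Nd6 had signals of 483, 341 and 605 in wild type and 396, 370 and 426 in knockout mice, so the groups overlapped.

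Genes that supply or assemble the chain were read from lists chosen with earlier results of these data known, and none of them passed the adjusted test in limma. Without wild type replicate 3 and knockout replicate 2, the alternative added after seeing the data, Bcs1l (-0.42, limma adjusted p = 0.0276) and Suclg2 (-0.46, limma adjusted p = 0.0335) passed among the genes named from these lists. From each of the 8 lists 3 genes were named by smallest p, and 7.15% of all genes were called under that setting. The lists held 1 to 4 genes at an unadjusted p under 0.05, or 12.5% to 33.3% of a list, except the mitochondrially encoded and iron-sulfur lists with 0. Of all genes, 19.9% had such a p, 18.6% being lower in the knockout, and 81.2% lay below 0. Cyc1, the cytochrome c1 of complex III, was lower with signals of 1713, 1487 and 1602 in wild type and 1357, 1249.8 and 1504 in knockout mice (-0.23 ± 0.10 SE, limma adjusted p = 0.261), and Cycs, cytochrome c, had a similar difference of -0.24 ± 0.10 SE. For both, the groups overlapped. Hccs, which attaches heme to them, had a difference of -0.16 ± 0.12 SE. In cytochrome oxidase assembly, 7 of 9 genes lay below 0 (median -0.11), with 2 lower at an unadjusted p under 0.05. They were Cox15, which makes heme A, with 399, 351 and 427 in wild type and 303, 322 and 286 in knockout mice (-0.37 ± 0.10 SE, limma adjusted p = 0.18), and Cox10, which makes heme O, with 381, 412 and 439 against 335, 356 and 306 (-0.31 ± 0.09 SE, limma adjusted p = 0.186). For neither gene did the groups overlap. Sco1, which delivers copper, had a difference of -0.14 ± 0.08 SE.

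Among other assembly factors, 7 of 8 lay below 0 (median -0.12), and Bcs1l, which inserts the Rieske protein of complex III, had the smallest p (-0.33 ± 0.10 SE, limma adjusted p = 0.187), followed by the complex I assembly factors Ecsit (-0.20 ± 0.10 SE) and Acad9 (-0.12 ± 0.07 SE). All 9 coenzyme Q synthesis genes lay below 0 (median -0.20), with 3 of them, Coq6, Coq3 and Coq5, at an unadjusted p under 0.05 and -0.21, -0.19 and -0.22. In 6 of the 9 the knockout mice lay below all wild type mice, as they did for 23.2% of all genes. Of these 6, Coq4, named after its values were seen, was near the background and detected in 3 wild type mice and 1 knockout mouse. It met the detection filter through the wild type group, so its lack of overlap carries little weight. In the citrate cycle, 11 of 12 genes lay below 0 (median -0.20) and 4 were lower at an unadjusted p under 0.05. Suclg2, a subunit of succinyl-CoA synthetase, had 319, 276 and 308 in wild type and 223, 264 and 209 in knockout mice (-0.38 ± 0.11 SE, limma adjusted p = 0.183), and Dld, a subunit shared by several dehydrogenase complexes, had a difference of -0.23 ± 0.07 SE.

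Of the regulators of mitochondrial gene expression, 12 of 13 lay below 0 (median -0.16), with 2 lower and 1 higher at an unadjusted p under 0.05. The lower genes were the coactivators Ppargc1b (-0.19 ± 0.07 SE) and Pprc1 (-0.27 ± 0.11 SE), and the higher was Polg2, a subunit of the mitochondrial DNA polymerase (0.23 ± 0.09 SE). Nrf1 (-0.06 ± 0.10 SE) and Gabpa (-0.03 ± 0.08 SE), whose products bind the letters searched in the promoters, were named after their values were seen. Iron-sulfur cluster assembly had a median of -0.05, with 5 of 9 genes below 0, and Hspa9 (-0.19 ± 0.11 SE), Nfu1 (-0.16 ± 0.10 SE) and Hscb (0.11 ± 0.08 SE) had the smallest p.

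The directions of these lists and their genes at an unadjusted p under 0.05 depended on the scaling. After quantile normalization and after centring, no gene of the coenzyme Q, citrate cycle, cytochrome c, regulator or other assembly lists was lower at an unadjusted p under 0.05, and 1 gene of cytochrome oxidase assembly was. Under both scalings 2 genes of cytochrome oxidase assembly, 1 other assembly factor and 1 regulator were higher at such a p. The iron-sulfur list had 1 higher gene after quantile normalization and 2 after centring. After centring alone, the citrate cycle had 1, the cytochrome c list 1 and the mitochondrially encoded list 2. Of all genes, 15.2% and 17.5% had such a p in either direction. After quantile normalization, coenzyme Q synthesis had 8 of 9 genes below 0 (median -0.04), the citrate cycle 8 of 12 (median -0.07), the mitochondrially encoded subunits 6 of 8 (median -0.03) and the cytochrome c list 3 of 4 (median -0.06). Cytochrome oxidase assembly then had 3 of 9 below 0 (median 0.04), other assembly factors 2 of 8 (median 0.04), iron-sulfur cluster assembly 2 of 9 (median 0.0044) and the regulators 7 of 13 (median -0.0016). After centring, 6 of 9 coenzyme Q genes (median -0.02) and 7 of 12 citrate cycle genes (median -0.02) lay below 0, as did 3 of 8 mitochondrially encoded subunits (median 0.06) and 2 of 4 genes of the cytochrome c list (median -0.02). Centring left 3 of 9 cytochrome oxidase assembly genes (median 0.06), 2 of 8 other assembly factors (median 0.05), 6 of 13 regulators (median 0.01) and 1 of 9 iron-sulfur genes (median 0.12) below 0. The neutrophil markers lay below 0 in all 17 genes under both scalings, with medians of -1.27 and -1.16.

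**Figure D5:**
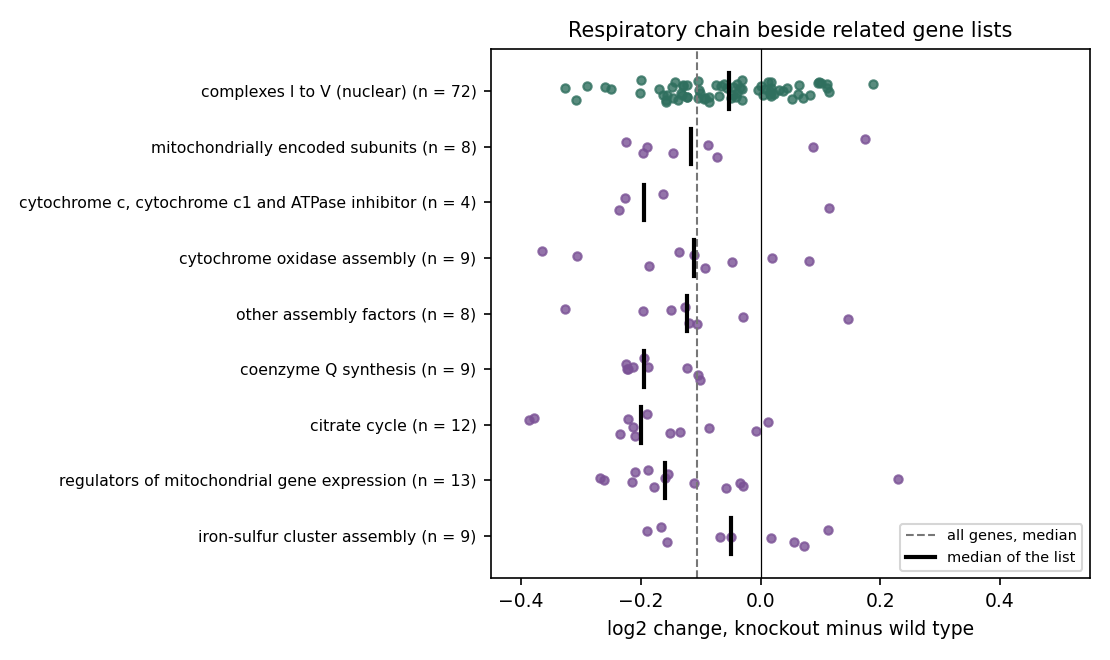
Log2 difference (knockout minus wild type, horizontal axis) of each gene of the nuclear respiratory chain and of 8 related lists (rows, with the number of genes), where short bars are list medians and the dashed line is the median of all tested genes at -0.11. The respiratory chain and iron-sulfur lists have medians of -0.05, and those of coenzyme Q synthesis and the citrate cycle lie at -0.20, all on the deposited scale.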

How the data were processed

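Each of 6 mice gave 1 single-colour Illumina array. The deposited table held an average signal (linear intensity) and a detection p-value for each of 45281 probes, per the file headers, and the authors' table name calls the signals normalized. How they were scanned, background corrected and normalized was not stated. The median undetected signal was 86.7 to 89.5, so the values keep a floor above 0. A second deposited table was identical. Per the labels' protocols, Trizol RNA was amplified into biotinylated cRNA.

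Signals were log2 transformed. Testing covered the 15743 probes detected (p under 0.05) on 3 or more arrays, and each symbol was represented by its brightest probe, giving 11562 genes. Knockout minus wild type was fitted on the 6 arrays with limma 3.58.1 (lmFit, eBayes; R 4.3.3). Its p-values were two-sided and were adjusted by Benjamini-Hochberg across the tested probes, and an adjusted p under 0.05 was called. The procedure was tested on simulated data. Symbols altered to dates or numbers left 54 probes without a gene name. The number of arrays limits the precision.

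Genes were named by rule: per complex, the 5 of smallest p and the 2 others of largest absolute difference, every member of a complex of 6 or fewer, the isoform sets, and 3 genes per related list of smallest p, with exceptions marked in the text; a few genes that the rule names are not reported here. The members and lists were chosen with earlier results of these data known. Alternatives covered scaling, background correction, pseudocount, filter, weights, probe choice and left-out mice. Equal replicate numbers did not pair the mice.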

Additional observations from a re-analysis of the deposited data

How the results depend on the processing

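No member passed the adjusted test under any alternative except the added one without wild type replicate 3 and knockout replicate 2, chosen after seeing the data, where 2 did. The number of all genes called, 12 as reported, was 34 after centring, 46 after nec background correction, 3 with detection on all 6 arrays, 105 with an intensity trend, 149 with array weights, 3 with the replicate block, 6 with the series of animal numbers in the model, 34 at an adjusted p under 0.1, 827 without the 2 mice just named, and 6 to 152 with 1 mouse left out. Members at an unadjusted p under 0.05, 2 as reported, numbered 7 after quantile normalization, 20 after centring, 4 with a pseudocount of 16, 9 with no filter, 5 with array weights, 7 without the 2 mice, 4 with genes added by older name, 0 among subunits alone, and 1 to 6 with 1 mouse left out. The members' median of -0.05 was 0.042 after quantile normalization, 0.12 after centring and -0.10 to 0.02 with 1 mouse left out. After centring the medians of complexes I to V were 0.13, 0.10, 0.052, 0.092 and 0.13, and after quantile normalization those of II and V were 0.042 and 0.055. The median of complex III was 0.057 with no filter, -0.021 with array weights and 0.0041 without the 2 mice. With 1 mouse left out, the medians ran from -0.09 to 0.04 in complex I, -0.15 to -0.05 in II, -0.13 to -0.036 in III, -0.10 to -0.04 in IV and -0.10 to 0.056 in V. Of 625 values of 33 named members over 19 alternatives, 43 had the other sign, most of them after centring or quantile normalization. Equal replicate numbers did not deviate together (r = 0.218, -0.278 and -0.188), so the replicate block, under which 0 members were called and 3 had an unadjusted p under 0.05, is given as a number only. The cause of these shifts was not tested. Signals near the background limit Ndufab1, Cox6a2 and Coq4.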
